A study of Mus musculus with 6 samples.

Results

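The middle and distal VH part of the mouse immunoglobulin heavy chain (IgH) locus was examined as the stretch of chromosome 12 from 115.2 to 117.35 Mb (mm9 build), which spans 2150 kb. Peaks of 6 ATAC-seq lists were merged into regions where they shared at least 1 bp, and regions whose midpoint fell inside the stretch were kept. This gave 277 regions of 149724 in the genome. ATAC-seq marks open chromatin by the DNA that a transposase can reach, and a peak is a stretch where such DNA piles up.

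The libraries came from 3 cultured pro-B cell lines labelled as bone marrow of strain 129SV, with 2 libraries each, made from 200000 cells and 11 PCR cycles. Every line is deficient in RAG2, without which V, D and J segments are not cut, and no treatment is labelled. WT carries intact IgH alleles. CBE_1 and CBE_2, labelled IGCR1-/-, carry IgH alleles mutated in IGCR1, a control region that lies outside the stretch. Each genotype arm rests on single lines (1 WT, 2 mutated), so an effect of the genotype and one of the line cannot be told apart. No label says that the 2 libraries of a line came from separate cultures. P-values for single regions therefore measure only the spread between the libraries of a line, which may be technical.

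VH segments are the variable gene segments of the heavy chain. In developing B cells a VH segment is joined to a DJ unit after D has joined J. The middle and distal segments lie farthest from D and J, and in pro-B cells the locus folds so that they come near it. Pax5, YY1 and CTCF are known to take part in this folding, and the distal part carries intergenic elements that bind Pax5. IGCR1 lies between the VH and D segments, and its CTCF-binding elements (CBEs) are known to restrain the joining of the VH segments nearest to it. The stretch runs from the VH segments nearer to D, at its lower coordinates, to the farthest VH segments. Mouse strain 129 carries another IgH haplotype than the C57BL/6 genome on which mm9 rests, and VH segments form families of similar sequence. How reads that fit several places were treated is not given in the sources used here, and its part in the results was not tested. The labels give the same strain for all 6 libraries.

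The mutated lines had more peaks in the stretch than WT, although their lists were shorter. WT had 192 and 183 peaks there, CBE_1 205 and 246, and CBE_2 203 and 206. All 4 mutated libraries thus exceeded both WT libraries. The whole lists ran the other way, from 72318 and 80242 peaks in CBE_1 to 112241 and 106056 in WT. As a share of its list, the stretch held 0.171% and 0.173% (WT), 0.283% and 0.307% (CBE_1) and 0.214% and 0.211% (CBE_2). The mean share was 0.172% ± 0.00105 (SD, n = 2) in WT and 0.254% ± 0.0484 (SD, n = 4) in the mutated libraries, a difference of 0.0821 percentage points. An exact two-sided permutation test over libraries gave p = 0.133 (0.133 after adjustment over 4 tests), the smallest p that 2 libraries against 4 can give. It treats the 4 mutated libraries as separate although they come from 2 lines, as do the permutation tests below. Line means were 0.295% (CBE_1) and 0.213% (CBE_2), so the SD over the 4 includes the gap between lines. The rest of chromosome 12 held between 3.78% and 3.90% of every list. For each 100 peaks there, the stretch had 4.50 and 4.44 peaks (WT), 7.48 and 8.10 (CBE_1) and 5.58 and 5.42 (CBE_2). CBE_1 was therefore highest, CBE_2 stood between, and the libraries of different lines did not overlap. The read depth behind the lists is unknown.

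**Figure D1:**
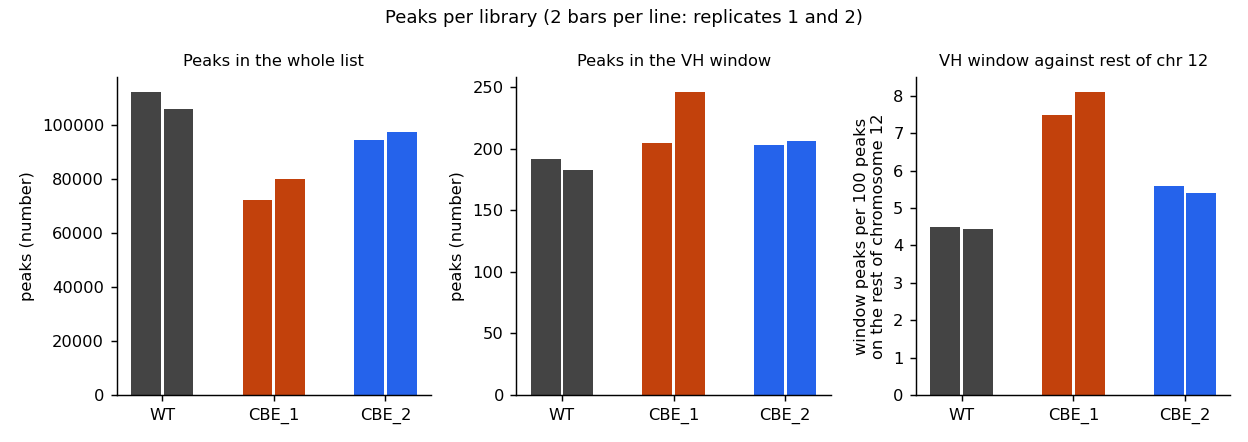
Bars give, for each of the 6 libraries, the number of peaks in the whole list, the number in the VH stretch, and the number in the stretch per 100 peaks on the rest of chromosome 12. WT has the longest lists but the fewest peaks in the stretch, and on the right CBE_1 stands at 7.48 and 8.10 against 4.50 and 4.44 in WT.

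Presence of single regions showed the same order. Of the 277 regions, WT had a peak in 178 (64.3%) and 170 (61.4%), CBE_1 in 192 (69.3%) and 233 (84.1%), and CBE_2 in 191 (69.0%) and 188 (67.9%). On the rest of chromosome 12 the order was reversed, at 72.3% and 68.9% (WT), 42.6% and 48.8% (CBE_1) and 60.3% and 62.6% (CBE_2). CBE_1 replicate 2 stood apart from its duplicate, with 24 of the 50 regions found in a single library. Regions present in all 6 libraries numbered 135 (48.7%, against 33.2% on the rest of chromosome 12). These are called shared regions below.

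Few regions set the lines apart by presence alone. Both WT libraries and no mutated library had a peak at 2 regions (0.722%, against 9.12% on the rest of chromosome 12), and 4 regions (1.44% against 1.62%) had a peak in all 4 mutated libraries and in neither WT library. Both CBE_1 libraries alone had 12 regions (4.33% against 0.682%), and both CBE_2 libraries alone had 2 (0.722% against 2.96%). CBE_1 alone lacked 3 regions (1.08% against 5.89%), and CBE_2 alone lacked 1 (0.361% against 0.413%). These shares are a description, without a test. They move with single libraries: regions of CBE_1 alone numbered 36 without CBE_1 replicate 1 and 23 without CBE_1 replicate 2, those of WT alone 4 and 6 without WT replicates 1 and 2 and 5 without CBE_1 replicate 2. Regions of the mutated lines alone numbered 10 without CBE_1 replicate 1, 9 and 7 without WT replicates 1 and 2, and 7 without either CBE_2 library. Regions of CBE_2 alone numbered 8 without CBE_1 replicate 2, and 6 and 11 without CBE_2 replicates 1 and 2. Those that CBE_1 alone lacked numbered 9 without CBE_1 replicate 2. Those that CBE_2 alone lacked numbered 4 without WT replicate 1, CBE_1 replicate 1 or CBE_2 replicate 2, and 2 without WT replicate 2.

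Of the 2 regions of WT alone, chr12:115427015-115427513 had a deposited fold over background of 4.22 and 3.96, near the middle of its lists (list percentiles 51.8 and 45.7), and at chr12:116175067-116175406 it was 3.35 and 3.41. Of the 4 regions of the mutated lines alone, the one at chr12:115500034-115501021 had the highest fold, with values of 3.77 and 3.96 in CBE_1 and 4.41 and 3.87 in CBE_2. It was 988 bp wide, and its peaks measured 648 to 786 bp. The others lay at chr12:115826591-115827505, chr12:116858631-116859255 and chr12:117039424-117039764, with folds between 2.26 and 4.08. A fold is the authors' value for 1 peak and serves here to describe and rank peaks within a list only.

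Of the 12 regions of CBE_1 alone, 6 lay in the seventh bin of 250 kb, chr12:116700001-116950000, which holds 55 of all 277 regions. The 5 that ranked best in their lists had folds of 2.92 to 4.22. They lay at chr12:115366854-115367122, chr12:115725346-115725591, chr12:116455910-116456305, chr12:116795565-116795918 and chr12:116839407-116839631. CBE_2 alone had chr12:115529066-115529658, with folds of 3.31 and 2.90, and chr12:116219169-116219400, with folds of 3.19 and 3.65.

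Among the regions lacking in 1 mutated line, chr12:117292760-117293430 stood out. Its fold was 2.49 and 2.64 in WT and 6.99 and 7.19 in CBE_2, with no peak in either CBE_1 library. CBE_1 also lacked chr12:115347595-115347947 and chr12:117100204-117100589, which had folds of 2.60 to 3.35 elsewhere. CBE_2 lacked chr12:115604506-115604935, with folds of 2.61 to 3.19 in the other 4 libraries.

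**Figure D2:**
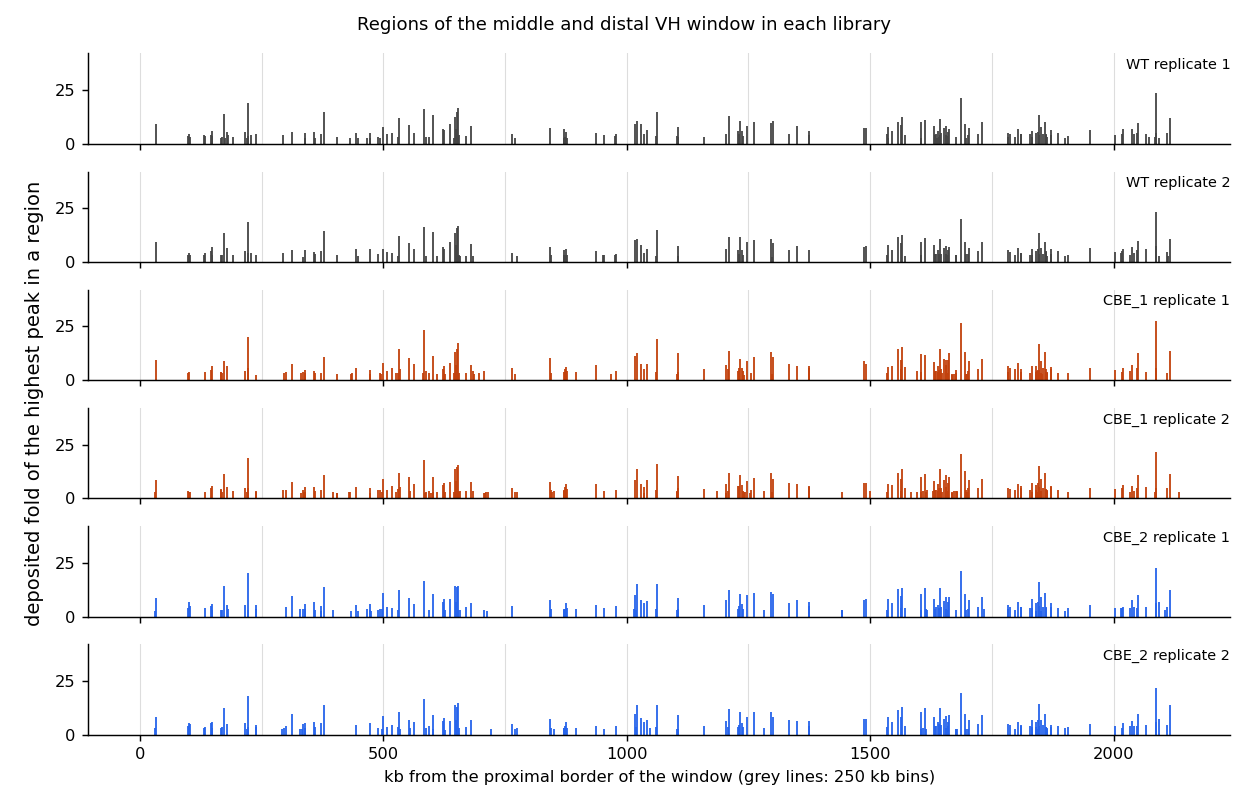
Each vertical line is a region, placed by its distance in kb from the proximal border of the stretch, and its height is the deposited fold of the highest peak of that region in the library named at the right. The tallest lines recur at the same places in all 6 libraries, and the lines are densest in the seventh 250 kb bin.

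Peaks in the stretch were spaced by a median of 4.76 and 5.03 kb (WT), 4.30 and 3.51 kb (CBE_1) and 4.65 and 4.29 kb (CBE_2). All 4 mutated values lay below both WT values, with a mean difference of -0.704 kb (exact two-sided permutation p = 0.133 over libraries, 0.133 after adjustment). The stretch has a fixed length, so spacing tends to shrink as peaks are added and is no evidence separate from their number. With only the better 50% of each list the difference was 0.0196 kb, and with lists of the same length it was -1.99 kb. Spacings under 2 kb numbered 61 and 53 (WT), 72 and 96 (CBE_1), and 70 in each CBE_2 library. Spacings over 20 kb were alike, 26 to 29 in every library. The longest stretches without a region in any library were chr12:115974558-116042682 (68.1 kb), chr12:116575171-116642163 (67.0 kb) and chr12:115233486-115297820 (64.3 kb).

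The direction of the difference in peak width depended on which peaks were counted. The median width of all peaks in the stretch was 473.5 and 464 bp (WT), 449 and 437 bp (CBE_1), and 456 bp in each CBE_2 library, a mean difference of -19.3 bp (exact two-sided permutation p = 0.133, 0.133 after adjustment). With the better 50% of each list the difference was 72.9 bp, in the other direction, and with lists of the same length -81.6 bp. In the shared regions, summed over the peaks of a region, median widths were 603 and 639 bp (WT), 628 and 727 bp (CBE_1) and 667 and 687 bp (CBE_2). The medians of WT and CBE_1 overlapped there. Widths of all 4 mutated libraries exceeded both WT widths in 24 of the 135 shared regions (17.8%), against 7.36% of the 47767 shared regions of the genome. They lay below both WT widths in 6 (4.44%), against 28.8%. Over whole lists the median peak was wider in the mutated lines, at 459 to 464 bp against 445 and 446 bp in WT.

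Shared regions of the stretch were 326 to 3618 bp wide, with a median of 775 bp, against 1013 bp on the rest of chromosome 12. Their highest summits lay within a median of 100 bp of each other over the 6 libraries, against 96 bp on the rest of the chromosome. The 3 widest regions of the stretch lay within 34.5 kb of each other in the seventh bin. They were chr12:116860541-116864158, chr12:116853161-116856333 and chr12:116884728-116887648, with widths of 3618, 3173 and 2921 bp. Of 9 regions wider than 2000 bp in the stretch, 5 lay in that bin and 1 in the first 4 bins.

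To compare strength between lists of unequal length, the fold of each shared region was turned into a percentile among the 47767 regions that all 6 libraries share. Only the 135 shared regions could enter, and a region that any library lacks is left out. In the stretch the median percentile was 27.4 and 31.1 (WT), 48.5 and 46.1 (CBE_1) and 38.5 and 34.3 (CBE_2). All 4 mutated libraries lay above both WT libraries, by 12.6 points on average (exact two-sided permutation p = 0.133, 0.133 after adjustment). The rest of chromosome 12 had medians of 49.1 to 50.2 in the 6 libraries. Shared regions of the stretch thus ranked low in WT, near the chromosome's median in CBE_1, and between them in CBE_2. The proximal VH side, from 114.75 to 115.2 Mb, with 14 shared regions, showed the same order, with medians of 8.06 and 12.7 (WT), 42.5 and 31.4 (CBE_1) and 21.1 and 15.8 (CBE_2). Within whole lists, the rank of all peaks in the stretch ran the other way. Their median list percentile was 55.6 and 56.3 (WT), 52.4 and 47.7 (CBE_1) and 51.1 and 51.5 (CBE_2). All 4 mutated libraries lay below both WT libraries there. Whole lists differ in length and in the regions they hold, so the percentiles of these rankings are over unlike sets.

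**Figure D3:**
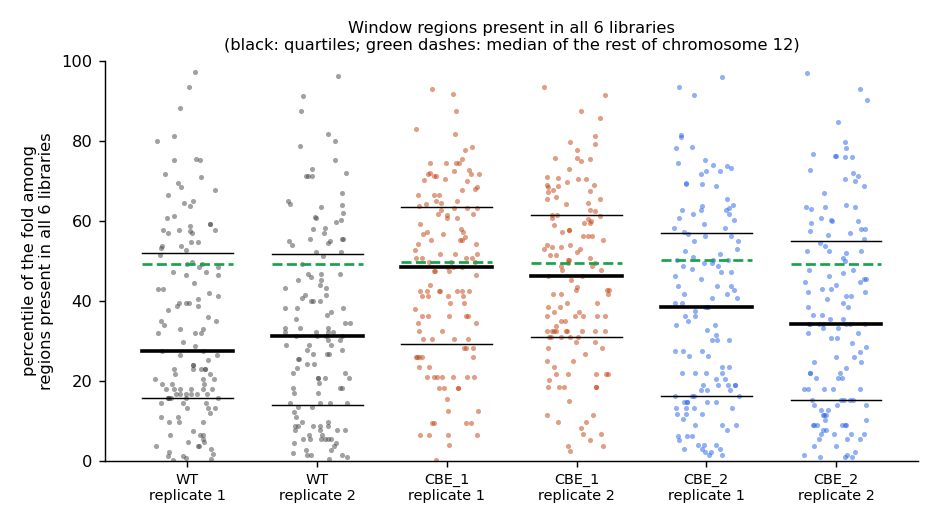
Points are the 135 shared regions of the stretch in each library, placed by their percentile among the 47767 shared regions of the genome, with quartiles in black and the median of the rest of chromosome 12 in green. The black medians stand at 27.4 and 31.1 (WT), 48.5 and 46.1 (CBE_1) and 38.5 and 34.3 (CBE_2), while the green lines stay near 50.

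Each shared region was then tested with limma on the normal scores of its percentiles, over all 47767 shared regions, with Benjamini-Hochberg adjustment and a threshold of 0.05. Against WT, 52 of the 135 regions rose in CBE_1 (38.5%) and 1 fell (0.741%). Across the genome 15.9% rose and 14.3% fell in the same comparison. The count of rises is therefore above the genome's share and the count of falls below it. The median difference was 11.9 percentile points, and 119 of the 135 regions had a higher mean percentile in CBE_1 than in WT. By mean normal score, 51.3% of the genome's shared regions were higher in CBE_1 than in WT.

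For CBE_2, 8 regions rose (5.93%) and 2 fell (1.48%), against 8.95% and 9.06% of the genome. The share of rises depends on the threshold and the lists. At an unadjusted p under 0.05 it was 28 of 135 (20.7%, against 16.3% of the genome), and with the better 50% of each list it was 12 of 78 (15.4% against 10.7%). The median difference was 3.49 points, with 99 regions higher and 36 lower in mean percentile. In mean normal score, 50.4% of the genome's shared regions were higher in CBE_2 than in WT. Since both lines are set against the same WT libraries, the 7 regions that rose in both lines are no independent evidence. For the mean of both mutated lines against WT, 33 regions rose (24.4%) and 2 fell (1.48%), against 12.6% of the genome in each direction. Percentiles of all 4 mutated libraries lay above both WT percentiles in 61 regions (45.2%, against 20.3% of the genome) and below both in 4 (2.96% against 20.1%).

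The mutated lines differed from each other. By limma's adjusted p, 25 regions were lower in CBE_2 than in CBE_1 (18.5%, against 9.71% of the genome) and 0 were higher (against 9.15%). At an unadjusted p under 0.05, 58 were lower (43.0%, against 19.4% of the genome) and 6 higher (4.44% against 18.0%). Of the 25, 18 had also risen in CBE_1 against WT. Both comparisons use the same CBE_1 libraries, so this overlap is no independent evidence. The mean percentile of CBE_2 stayed above that of WT in 12 of the 25 and lay below it in 13. By mean percentile CBE_1 was the highest line in 104 of the 135 regions (77.0%), CBE_2 in 23 (17.0%) and WT in 8 (5.93%). Across the genome these shares were 37.7%, 28.9% and 33.4%.

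The number of calls moved with single libraries, in the stretch and across the genome. Where 1 library was left out, the remaining library of that line was assumed to vary like the other lines. CBE_1 against WT then gave 13 and 12 calls without WT replicates 1 and 2, 23 and 43 without CBE_1 replicates 1 and 2, and 35 without either CBE_2 library, in place of 53. Rises in CBE_1 against WT also became fewer across the genome in each of these settings. Their share in the stretch stayed above the genome's for CBE_1 against WT and below it for CBE_2 against WT. Calls of the mutated mean against WT fell from 35 to 8, 6, 10 and 13 without WT replicates 1 and 2 and CBE_2 replicates 1 and 2. It gave 24 and 36 calls without CBE_1 replicates 1 and 2. Without WT replicate 2 its rises were 5 (3.57%), against 4.23% of the genome. Calls of CBE_2 against WT fell from 10 to 2 without either WT library and to 1 without either CBE_2 library. CBE_2 against CBE_1 gave 7 calls without either WT library and 4 without CBE_1 replicate 1. Without CBE_1 replicate 2 it gave 19, of which 16 were lower and 3 higher in CBE_2. Without either CBE_2 library it gave 0 limma calls both here and across the genome, and 37 of 138 (26.8%, against 14.3% of the genome) and 30 of 135 (22.2% against 14.6%) shared regions of the stretch were lower in CBE_2 at an unadjusted p under 0.05. The mutated minus WT difference of the library medians, 12.6 points over the 135 regions, ranged from 9.56 to 15.1 points when each library was left out, over the regions that the other 5 libraries share.

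By adjusted p, every rise in CBE_1 against WT lay at a mean percentile under 75, where all but 8 shared regions lay. Rises were not compared between strengths by a test. Shared regions were grouped by their mean percentile over all 6 libraries. Under 25, 20 of 50 regions rose in CBE_1 against WT (40.0%), against 12.2% of all shared regions of that strength. From 25 to 50, 22 of 43 rose (51.2% against 16.8%), and from 50 to 75, 10 of 34 (29.4% against 16.2%). Among the 8 regions at 75 and over, 0 rose by adjusted p, against 18.3% of the genome at that strength. At an unadjusted p under 0.05, 3 were higher, and so were 23.3% of the genome's shared regions of all strengths. The median difference was 13.9, 14.6, 8.64 and -0.918 points in these 4 groups. In CBE_2 the rises were 1 (2.00%, against 7.14% of the genome at that strength), 5 (11.6% against 12.3%), 2 (5.88% against 10.3%) and 0 (against 5.53%). At an unadjusted p under 0.05 they were 5, 14, 8 and 1, while 16.3% of the genome's shared regions of all strengths passed. The genome's share at each strength was not computed for that threshold.

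The 8 strongest shared regions had mean percentiles of 75.4 to 95.5 over the 6 libraries. The highest, at chr12:117285248-117287640, stood at percentiles 97.3 and 96.3 (WT), 92.9 and 93.4 (CBE_1) and 95.9 and 96.9 (CBE_2). It was the region that fell in CBE_1 against WT (limma, adjusted p = 0.0381), by 3.66 points. It lies near the distal border, which is approximate, and whether it belongs to the VH segments was not tested. The next, chr12:116884728-116887648, stood at 93.5 and 91.1 (WT), 91.7 and 91.4 (CBE_1) and 93.5 and 93.1 (CBE_2). At chr12:115420577-115421866 the percentiles were 88.3 and 87.4 (WT), 82.9 and 87.5 (CBE_1) and 91.4 and 90.1 (CBE_2). The libraries of WT overlapped those of CBE_1 there.

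The other 5 of the 8 strongest were chr12:115782778-115783945, chr12:115853153-115854969, chr12:116261531-116263823, chr12:117046064-117048197 and chr12:115849648-115851210. Their mean percentiles ran from 75.4 to 83.2. Among them chr12:117046064-117048197 rose in the mutated mean against WT, from 69.5 and 71.2 to 77.6 and 79.2 (CBE_1) and 81.0 and 78.2 (CBE_2) (limma, adjusted p = 0.0481).

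Among the regions called for the mutated mean against WT, the 8 with the largest normal-score differences comprised 7 rises and 1 fall. Of these 8, chr12:115511502-115512554 had the lowest adjusted p. It stood at percentiles 24.0 and 27.7 (WT), 56.6 and 56.2 (CBE_1) and 58.2 and 59.4 (CBE_2). It rose by 31.7 points, a normal-score difference of 0.84 ± 0.072 (SE; limma, adjusted p = 0.00291), and it rose in both lines. Its peak width was 527 and 447 bp (WT), 639 and 802 bp (CBE_1) and 960 and 839 bp (CBE_2), so the groups did not overlap in width either. At chr12:116235090-116235930 both lines rose as well, from 16.7 and 14.5 (WT) to 37.9 and 39.5 (CBE_1) and 36.2 and 34.3 (CBE_2). The mutated mean was 21.3 points above WT (limma, adjusted p = 0.00455). These 2 calls held when any library was left out, with adjusted p of up to 0.0320 and 0.0494.

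In other rises CBE_1 stood well above CBE_2. At chr12:116430410-116430910 percentiles were 15.6 and 8.62 (WT), 42.5 and 43.5 (CBE_1) and 21.8 and 17.8 (CBE_2). The difference between the mutated lines was itself called there (limma, adjusted p = 0.0327). At chr12:116840882-116841504 they were 2.26 and 7.52 (WT), 32.4 and 31.0 (CBE_1) and 13.2 and 25.8 (CBE_2). The normal-score difference of the mutated mean from WT was 1.04 ± 0.207 (SE; limma, adjusted p = 0.0230). The remaining rises were chr12:116075789-116076585, chr12:116531871-116532611 and chr12:117054043-117054481, by 14.9, 23.4 and 18.2 points. The fall was at chr12:116071138-116071582, from 40.4 and 28.9 (WT) to 18.2 and 21.7 (CBE_1) and 8.94 and 5.44 (CBE_2) (limma, adjusted p = 0.0157). It lies less than 5 kb from the rise at chr12:116075789-116076585. Each of these 6 calls was lost when at least 1 library was left out, with adjusted p of up to 0.183, and none changed direction.

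**Figure D4:**
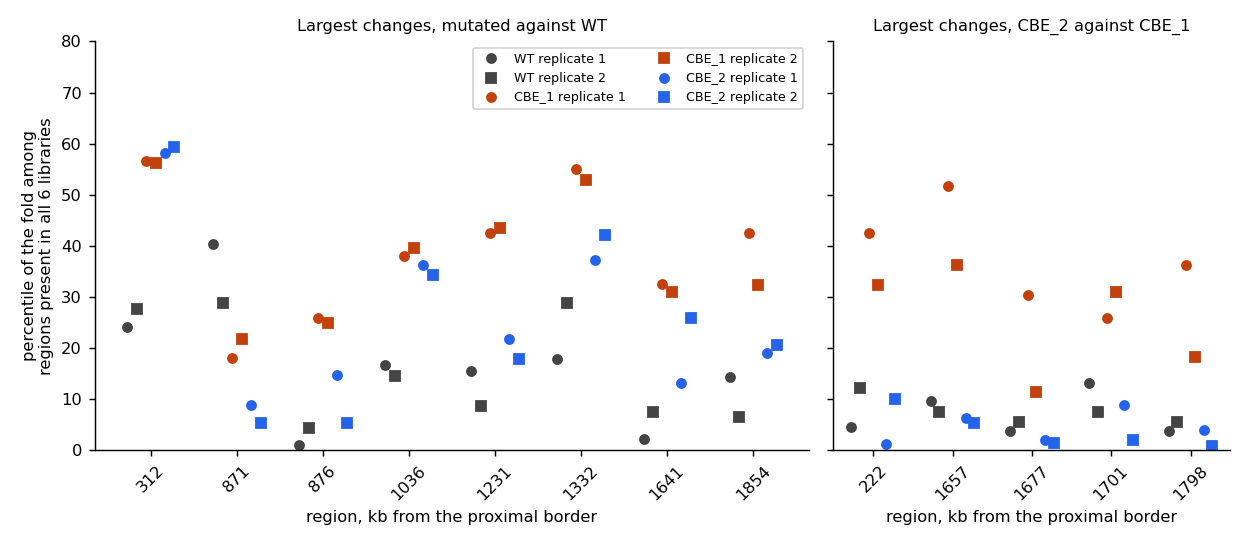
Points give the percentile of a region in each library, with regions placed in order of their distance in kb from the proximal border. On the left are the 8 regions with the largest called differences between the mutated mean and WT, 7 of them higher and 1 lower in the mutated lines, and on the right the 5 with the largest called differences between CBE_2 and CBE_1, where both CBE_1 libraries lie above the other 4.

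The 3 widest regions, which lie together in the seventh bin, did not move alike. At chr12:116860541-116864158 percentiles were 38.6 and 39.8 (WT), 70.5 and 64.5 (CBE_1) and 56.1 and 57.0 (CBE_2), a rise in CBE_1 (limma, adjusted p = 0.00704) and in CBE_2 (limma, adjusted p = 0.0323). At chr12:116853161-116856333 they were 48.5 and 43.1 (WT), 63.2 and 67.1 (CBE_1) and 56.6 and 55.5 (CBE_2). There the rise passed the test for CBE_1 (limma, adjusted p = 0.0171) and missed it for CBE_2 (adjusted p = 0.119). The third, chr12:116884728-116887648, differed from WT by less than 1 point in either line.

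Along the stretch, regions were densest in the seventh bin, chr12:116700001-116950000, with 55 regions or 22.0 per 100 kb. They were sparsest in the sixth, chr12:116450001-116700000, with 17 or 6.80 per 100 kb. The seventh bin, which holds the most regions, also had the largest surplus of CBE_1 over WT in mean number of regions with a peak (45.5 against 33). The third followed (33 against 22.5). These surpluses are not scaled to the size of a bin. The sixth, with the fewest regions, had 13.5 against 9. In the seventh bin WT had a peak in 34 and 32 regions, CBE_1 in 41 and 50, and CBE_2 in 36 in each library. In the third bin, chr12:115700001-115950000, the numbers were 22 and 23 (WT), 30 and 36 (CBE_1) and 23 and 25 (CBE_2). In the first bin CBE_1 had no such surplus, with 15 and 20 regions against 22 and 19 in WT. Nor had it one in the ninth, with 12 and 15 against 15 and 16. In the fourth the means were close, 14.5 (CBE_1) against 13.5 (WT).

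The share of shared regions that rose in CBE_1 also varied along the stretch. Over the whole stretch the share was 38.5%, against 15.9% of the genome. In the first 3 bins 1 of 13, 1 of 9 and 4 of 17 rose. In bins 4 to 8 it was 6 of 8, 10 of 17, 4 of 8, 13 of 30 and 10 of 22, and in the ninth, of 150 kb, 3 of 11. The seventh bin stood at median percentiles of 35.2 and 32.2 (WT), 55.4 and 52.1 (CBE_1) and 43.4 and 40.6 (CBE_2). In the fourth bin medians were 18.5 and 17.6 (WT), 34.2 and 34.2 (CBE_1) and 22.6 and 15.1 (CBE_2), so CBE_2 fell on either side of WT. Median differences of CBE_1 from WT were positive in all 9 bins, from 4.91 points in the first to 21.2 in the fourth. Those of CBE_2 ran from -0.47 in the ninth to 6.60 in the second. Bins hold few shared regions each, and differences between bins were not tested.

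The 2 outermost shared regions on each side of the stretch were also looked at. For comparison, 53 of the 135 shared regions of the stretch were called in CBE_1 against WT and 10 in CBE_2. On the proximal side chr12:115232408-115233485 stood at 53.2 and 55.5 (WT), 63.2 and 59.1 (CBE_1) and 53.0 and 54.4 (CBE_2), with no call against WT. Next to it chr12:115297821-115298199 rose in CBE_2 against WT (limma, adjusted p = 0.0384), from 6.44 and 2.75 to 14.7 and 13.8, while CBE_1 stood at 9.30 and 9.72. On the distal side chr12:117309408-117309891 and chr12:117315470-117317087 had mean percentiles of 19.8 and 68.7 over the 6 libraries, with no call against WT.

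**Figure D5:**
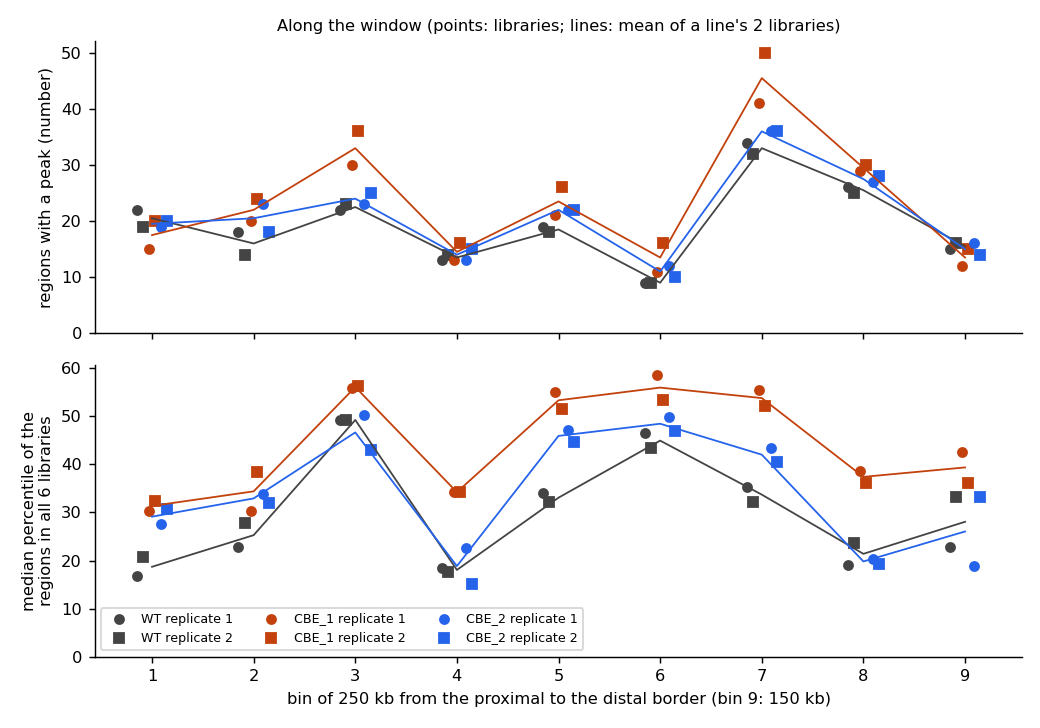
For each 250 kb bin from the proximal to the distal border, the upper panel gives the number of regions with a peak and the lower panel the median percentile of the shared regions, with points for libraries and lines for the mean of a line. CBE_1 lies above both WT libraries in the lower panel in every bin. In the upper panel its surplus in number is largest in the seventh bin, which holds the most regions, with 41 and 50 against 34 and 32.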

How the data were processed

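The authors deposited 1 peak list per library on mm9. The submitters' processing notes name Trimmomatic, Bowtie2, SAMtools and Picard. Which peak caller made the lists, and whether reads were shifted for the enzyme's cut, is not given in the sources used here. Each deposited peak carries a position, a score, a fold over background (a ratio), −log10 of the p-value and q-value, and a summit. The score is the whole part of 10 times the −log10 q-value in all 563044 peaks of the deposited lists, and the narrowest peak is 200 bp. Read depth is unknown.

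Regions were built, ranked by the highest fold of a region, and converted to normal scores in Python 3.11.15 (scipy 1.17.1). They were tested across all 47767 shared regions with limma 3.58.1, line as the only term, 3 lines sharing 1 estimate of spread. On simulated data of 47767 regions for CBE_1 against WT, with 200 shifted by 1 normal score unit, 43.5% were recovered and 4 others called. Values of 1 library each were compared by exact two-sided permutation tests (15 assignments), adjusted over 4. Named regions are the 8 strongest shared, the 8 and 5 with the largest called differences (mutated against WT, CBE_2 against CBE_1), line-specific regions, the 3 widest, the 3 longest gaps and the 2 outermost shared on each side. Members and rules were chosen with earlier results of these data known. Alternatives changed merging, threshold, list length, borders, libraries, rank measure and scale. Gene names, motifs and sequences were not used here, since the gene table at hand is of build GRCm38.p6, so the pro-B identity of the lines was not checked. Replicates are numbered in accession order and do not pair the lines.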

Additional observations from a re-analysis of the deposited data

Results flagged for a closer look

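The response of shared regions differed between the mutated lines by the direct test of CBE_2 against CBE_1 (limma, adjusted p under 0.05). It was called at 25 of the 135 shared regions, with CBE_1 higher at each. The 5 largest by normal score were chr12:116856494-116856981, where CBE_2 stood 38.1 points below CBE_1 (a difference of -38.08), chr12:115422165-115422658 (-31.74), chr12:116997396-116997797 (-24.9), chr12:116900832-116901609 (-22.9) and chr12:116876496-116877217 (-19.16). At chr12:116856494-116856981, between 2 of the 3 widest regions, percentiles were 9.69 and 7.52 (WT), 51.7 and 36.2 (CBE_1) and 6.23 and 5.44 (CBE_2). There the rise of CBE_1 over WT was 35.3 points (limma, adjusted p = 0.00694), and CBE_2 differed from WT by -2.77 points (limma, adjusted p = 0.415). At chr12:115422165-115422658 percentiles were 4.61 and 12.1 (WT), 42.5 and 32.3 (CBE_1) and 1.30 and 10.1 (CBE_2). All 5 regions are weak in WT and CBE_2, and each call was lost when at least 1 library was left out, with limma adjusted p of up to 0.166 and no change of direction. The calls at chr12:115422165-115422658 and chr12:116900832-116901609 were lost whichever of the 6 libraries was left out.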

How the results depend on the processing

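Every library value and count was recomputed with 100 bp merging, the better 50% of each list, lists shortened to their 72318 best peaks, borders moved inward by 50 kb, each library left out, ranks by −log10 p (identical to ranks by fold) and untransformed percentiles, as far as a setting bears on a result. With the better 50% of each list the mutated minus WT difference reversed for the median width, to 72.88 bp, and for the median spacing, to 0.01956 kb; lists of the same length gave -81.62 bp and -1.987 kb. Regions then numbered 143, shared regions 78, and calls of CBE_2 against CBE_1 15. Untransformed percentiles gave 18 calls of CBE_2 against WT. With 1 library left out, calls ranged from 6 to 36 for the mutated mean against WT, 12 to 43 for CBE_1 against WT, 1 to 13 for CBE_2 against WT, and 0 to 19 for CBE_2 against CBE_1. The share of the list and the median percentile of shared regions stayed higher in the mutated libraries in all alternatives run. With lists of the same length 48 of 117 shared regions rose in CBE_1 against WT (41.0%, against 16.7% of the genome) and 9 in CBE_2 (7.69% against 9.07%). Of 13 named regions with a test, all kept their direction, and 2 were called in every alternative. Read depth, which is unknown, limits whether a missing peak means closed chromatin.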

Other observations

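Within the 34.5 kb that hold the 3 widest regions, chr12:116853161-116887648, 15 regions were found, of which 6 were shared. Of these, 4 rose in CBE_1 against WT, 1 rose in CBE_2, and 3 were lower in CBE_2 than in CBE_1 (limma, adjusted p under 0.05). Across the genome these shares were 15.9%, 8.95% and 9.71%. Over the 135 shared regions of the VH stretch they were 38.5%, 5.93% and 18.5%. The 34.5 kb were picked after their values were seen and hold few shared regions, so these counts are a description only.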
